A study of Sus scrofa with 21 samples.

Results

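The genes described here carry the first steps of insulin, insulin-like growth factor (IGF), adiponectin and leptin signalling: the receptors INSR, IGF1R, IGF2R, ADIPOR1, ADIPOR2 and LEPR, the insulin receptor substrates IRS1 and IRS2, and LEPROT, a small membrane protein named for its overlap with leptin receptor transcripts. They are 9 genes of the 47053 gene names on the array, and their probes were found by the gene name given in the scanner files. Probes were found for 8 of the 9 genes (29 probes), and no probe carried the name IRS2. After the removal of the dimmest 25% of all probes, 23 of the 29 probes and 6 of the 9 genes were left for testing, among 34393 gene names tested. INSR and LEPR each had 1 probe, and both probes were removed.

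Insulin and IGF1 bind receptor tyrosine kinases, INSR and IGF1R, which phosphorylate docking proteins such as IRS1 and IRS2 and so recruit PI3-kinase and AKT. IGF2R is different: it binds IGF2 for degradation and carries lysosomal enzymes tagged with mannose 6-phosphate, without a kinase of its own. ADIPOR1 and ADIPOR2 are seven-pass membrane proteins that bind adiponectin, the hormone of fat cells, and act through AMP-activated kinase, PPARA and ceramidase activity. LEPR is a cytokine-type receptor that signals through JAK2 and STAT3, and LEPROT is known to lower the amount of leptin receptor at the cell surface. These pathways are best known in liver, muscle, fat and brain, and blood cells express part of them.

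Whole blood was taken at 60 days of age from 10 SLAdd pigs (DD), an inbred minipig line kept homozygous at the swine leukocyte antigen locus, and from 11 Large White pigs (LW), the commercial controls. All pigs were fed a standard diet ad libitum, and no treatment was given. RNA of each pig was hybridised to 1 array, on 3 chips that each held both breeds (3 DD and 4 LW on chip 1, 4 and 4 on chip 2, 3 and 3 on chip 3). For the last of these chips the paper reports a technical bias, which its model treated as an effect of the chip. The part of that bias in the breed differences below was not tested. The DD pigs came from 5 litters of the same closed herd and the LW pigs from 6 litters, so breed, herd and inbreeding cannot be told apart, and precision is limited by the number of arrays and of litters.

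Values are log2 levels after quantile normalisation by the authors, and differences are DD minus LW on that scale. Levels of different probes were not compared with each other, except to pick the probe of a gene with the highest mean as another way to summarise it. A spot counted as well above background when the scanner software flagged it so. The DD arrays were dimmer than the LW arrays before normalisation: array brightness, taken as log2 of the 75th percentile of processed spot signals, averaged 7.53 over the DD pigs (SD 0.54, n = 10), while the controls were at 8.22 (SD 0.38, n = 11). The gap was small on chip 1 (7.95 in DD, 8.03 in LW), wider on chip 2 (7.55 and 8.31) and widest on chip 3 (7.09 and 8.36). Whole blood holds many cell types, so more cells of a type and more RNA per cell cannot be told apart.

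The probes are 60-mers, between 35.0% and 55.0% GC. The ones that carry the results are printed here because some share all or most of their bases and are therefore not separate looks at a gene. Capitals mark the stretch that a probe shares with the probe printed next to it.
ADIPOR1 A_72_P077761: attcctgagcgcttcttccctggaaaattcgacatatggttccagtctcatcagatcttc
ADIPOR1 A_72_P187361: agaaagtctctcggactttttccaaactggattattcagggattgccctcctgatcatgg
ADIPOR2 A_72_P302919: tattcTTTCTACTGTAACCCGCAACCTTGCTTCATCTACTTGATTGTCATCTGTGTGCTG
ADIPOR2 A_72_P440141: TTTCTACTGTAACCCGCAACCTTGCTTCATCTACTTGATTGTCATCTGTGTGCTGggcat
IGF2R A_72_P490952: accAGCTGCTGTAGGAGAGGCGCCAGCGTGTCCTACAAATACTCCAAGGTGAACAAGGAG
IGF2R A_72_P245722: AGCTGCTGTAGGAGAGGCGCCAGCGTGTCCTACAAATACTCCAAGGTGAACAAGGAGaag
INSR O11193: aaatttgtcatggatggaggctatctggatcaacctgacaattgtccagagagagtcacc
IRS1 A_72_P371473 (first 30 bases): gaaactacacccaacctggaatttcttcct

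Both ADIPOR1 probes printed above lie in the coding sequence, at bases 605 and 973 of the pig transcript as the array's files number it. The 2 ADIPOR2 probes share 55 bases and the 2 IGF2R probes share 57 bases. The IRS1 probe is tied to its gene by the title of a predicted pig transcript alone, in which it starts at base 5222, and that transcript is not among those that RefSeq's Sscrofa11.1 annotation gives for IRS1. Of the other probes, 3 pairs within a gene had the same 60 bases (ADIPOR2 A_72_P016016 and O13159, IGF2R A_72_P513762 and O10348, LEPROT A_72_P176516 and O5306). The difference between the spots of such a pair varied over the 21 arrays with an SD of 0.03 for ADIPOR2, 0.07 for IGF2R and 0.11 for LEPROT, which is the repeat error of bright spots on the log2 scale. The ADIPOR1 probe A_72_P077761 also had a copy filed under a record number, with an SD of the difference of 0.06. At dim spots the repeat error was larger: 0.45 between the IGF2R probe A_72_P245722 and its copy under a record number, and 0.72 between the LEPR probe and its copy.

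Of the 6 genes tested, ADIPOR1 was called higher and IRS1, at a probe near background, lower in DD pigs, and ADIPOR2, LEPROT, IGF1R and IGF2R did not pass the test (limma with chip and litter, Benjamini-Hochberg adjusted over all gene names). That is 2 of 6 genes called, where 20.9% of all gene names tested were called, 11.4% as higher and 9.41% as lower in DD pigs, so between 1 and 2 of any 6 gene names would be called and the count of 2 is not a result about these genes. Higher genes made up 54.9% of all calls here and 69.7% when arrays were scaled to the 75th percentile instead, where ADIPOR1 stayed higher (0.81) and IRS1 was not called. By probe, 3 of the 23 were called higher and 1 lower, against 21.7% of all probes called in either direction, 11.0% higher and 10.7% lower. Neither gene call held when array brightness was added to the model, where 0 of the 6 genes were called. That model called 2.15% of all gene names, so the count of 0 is not a result about these genes either.

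**Figure D1:**
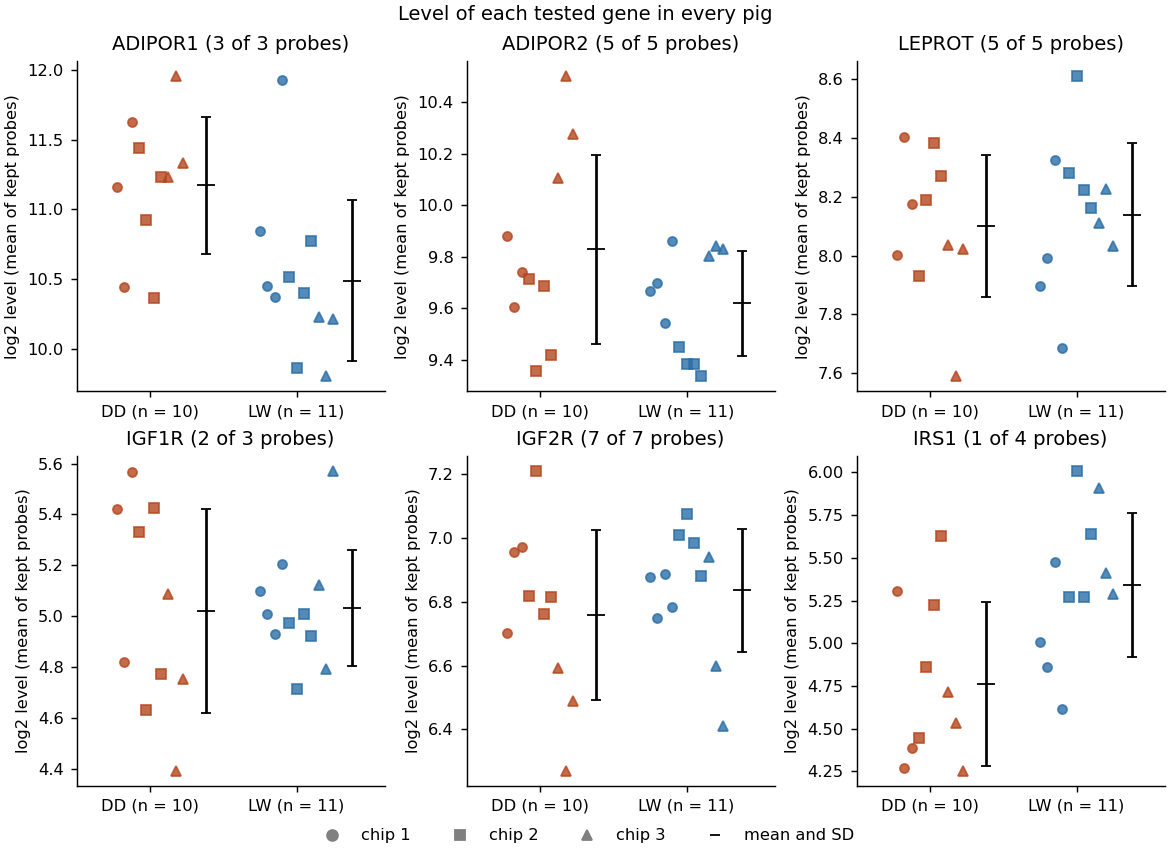
Level of the 6 tested genes in every pig: the y axis is the log2 level averaged over the kept probes of the gene, orange points are the 10 DD pigs and blue points the 11 LW pigs, the marker gives the chip, and the bar shows the mean and SD of a breed. ADIPOR1 averaged 11.17 in DD pigs and 10.49 in LW pigs and IRS1 4.76 and 5.34, and the breeds overlap in every panel.

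ADIPOR1 (chr10:24907491-24923540, Sscrofa11.1) is the adiponectin receptor linked to AMP-activated kinase. Its level ran from 10.37 through a median of 11.23 to 11.95 in DD pigs, and from 9.81 through a median of 10.41 to 11.92 in LW pigs. Only 1 DD pig lay above every LW pig, and 1 LW pig of chip 1, at 11.92, lay above all DD pigs but that one. The DD mean of 11.17 ± 0.49 (SD, n = 10) compared with an LW mean of 10.49 ± 0.57 (SD, n = 11). The fitted difference was 0.70 (SE 0.21, 95% interval 0.27 to 1.14, limma adjusted p = 0.0268), a 1.63-fold higher level.

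The 3 ADIPOR1 probes moved the same way, and each was well above background on all 21 arrays. The differences were 0.79 (SE 0.23, limma adjusted p = 0.0232) at A_72_P077761 and 0.78 (SE 0.24, limma adjusted p = 0.0282) at A_72_P187361. The third, O10680, gave 0.53 (SE 0.21, limma adjusted p = 0.0722). It was the probe of the gene with the highest mean, so a gene value taken from that probe alone was not called. The copy of A_72_P077761 under a record number gave 0.78 (SE 0.24, limma adjusted p = 0.0280), as a second spot of the same sequence would. At the level of single probes, the lowest DD value of A_72_P187361 was 8.27 and the highest 10.91, against 7.95 and 10.35 in LW pigs, so the breeds overlapped over most of their range.

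The ADIPOR1 difference was not the same size on the 3 chips, and it came in the same order as the brightness gap between the breeds. Chip 1 gave a difference of 0.18, chip 2 one of 0.60 and chip 3 one of 1.42. The largest difference thus came from the chip with the reported technical bias. On chip 1, where the breeds were nearly equally bright, the SD within a breed was 0.59 in DD pigs and 0.71 in LW pigs, larger than the difference. Without chip 3 the difference was 0.41 (SE 0.25, limma adjusted p = 0.433), and without chip 2 it was 0.76 (SE 0.30, limma adjusted p = 0.162). With brightness as a covariate it was 0.04 (SE 0.16, limma adjusted p = 0.993). On litter means it was 0.65 (limma adjusted p = 0.128), and with no chip term 0.68 (limma adjusted p = 0.0661). Leaving out single pigs gave 0.60 to 0.83, with adjusted p-values from 0.0041 to 0.0593. The call was lost without DD pig 10 (0.65), DD pig 21 (0.60), LW pig 12 (0.65), LW pig 18 (0.69), LW pig 22 (0.62) or LW pig 24 (0.67).

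**Figure D2:**
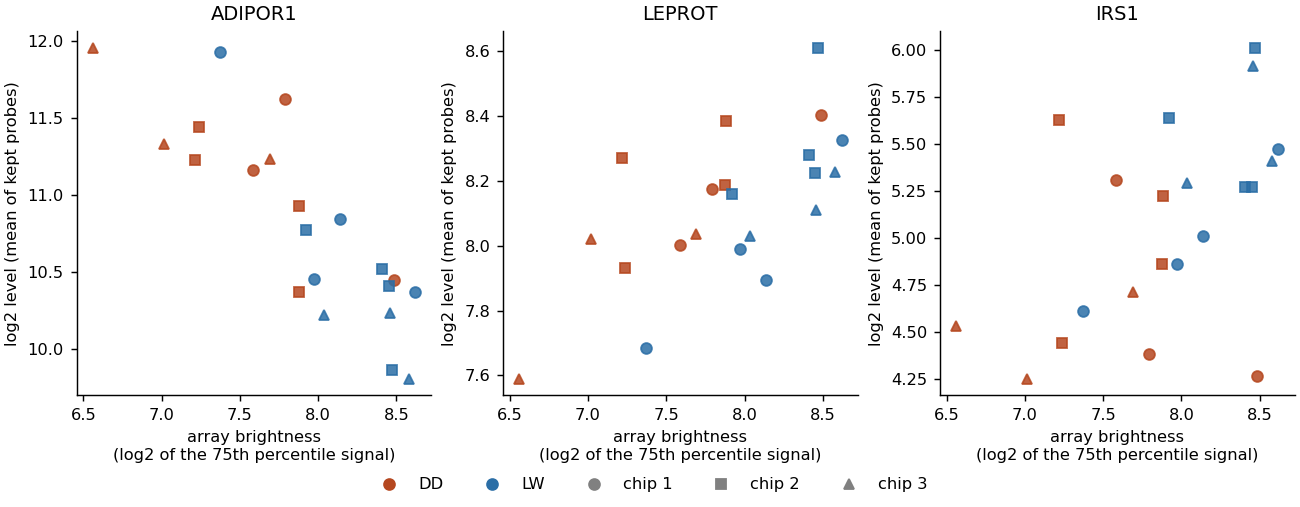
ADIPOR1, LEPROT and IRS1 in every pig (y axis, log2 level averaged over the kept probes) against the brightness of its array before normalisation (x axis, log2 of the 75th percentile signal), with DD pigs in orange, LW pigs in blue and the chip as marker. ADIPOR1 runs from its highest DD value, 11.95, on the dimmest array (6.56) down to its lowest LW value, 9.81, on one of the brightest, and LEPROT runs the other way, with its lowest value, 7.59, on the same dimmest array.

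ADIPOR2 (chr5:68755789-68807247), the receptor linked to PPARA, did not pass the test as a gene. Its level ran from 9.36 through a median of 9.73 to 10.50 in DD pigs, and from 9.34 through 9.67 to 9.86 in LW pigs. Here 4 DD pigs lay above every LW pig, and 3 of these 4 were the DD pigs of chip 3. The fitted difference was 0.21 (SE 0.09, 95% interval 0.03 to 0.39, limma adjusted p = 0.0867). From chip 1 to chip 3 it went from 0.05 through 0.16 to 0.47, and it was 0.04 (SE 0.09) with brightness as a covariate. The gene passed the test on other scalings, at 0.32 (limma adjusted p = 0.0411) with the processed signal scaled to the 75th percentile and at 0.17 (limma adjusted p = 0.0291) with a background offset of 50, and without DD pig 6 (0.25, limma adjusted p = 0.0422).

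The 5 ADIPOR2 probes did not give the same difference, although all were well above background on all 21 arrays. The overlapping coding probes gave 0.43 (SE 0.16, limma adjusted p = 0.0577) at A_72_P302919 and 0.39 (SE 0.14, limma adjusted p = 0.0458) at A_72_P440141, and a spot with the sequence of the former under a record number gave 0.45 (SE 0.13, limma adjusted p = 0.0252). The pair of identical probes A_72_P016016 and O13159 gave 0.19 (SE 0.08) and 0.20 (SE 0.08), neither of them called. The probe A_72_P081001, at base 2389 of a record that ends in the 3′ untranslated region, gave −0.15 (SE 0.09, limma adjusted p = 0.237), with DD levels from 10.92 to 11.60 and LW levels from 11.02 to 11.52. The gene value is thus an average over probes that differ in sign, and the difference between the probes was not tested.

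**Figure D3:**
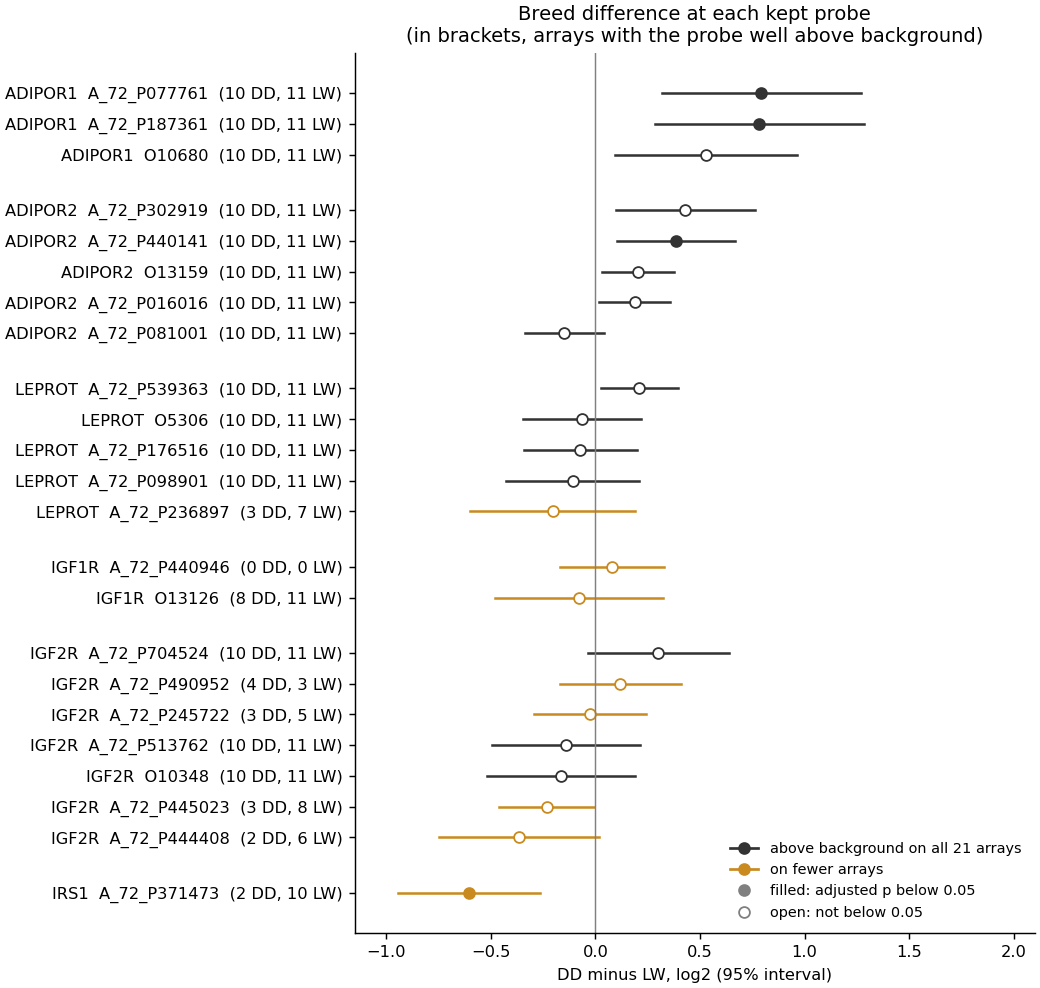
DD minus LW at each of the 23 kept probes (x axis, log2, point and 95% interval), grouped by gene; filled points had an adjusted p below 0.05, and orange points were not well above background on all 21 arrays, with the number of such arrays in brackets. The 3 ADIPOR1 probes lie at 0.53 to 0.79, the 5 ADIPOR2 probes at −0.15 to 0.43, and IRS1 rests on 1 dim probe at −0.61.

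LEPROT (chr6:146974641-146987261) lies next to LEPR on the same chromosome, and the RefSeq intervals of the genes do not overlap here. Its level ran from 7.59 through a median of 8.11 to 8.40 in DD pigs and from 7.68 through 8.16 to 8.61 in LW pigs. The breeds overlapped throughout, and the fitted difference was −0.05 (SE 0.10, 95% interval −0.27 to 0.17, limma adjusted p = 0.768). By chip it changed sign, at 0.22 on chip 1, −0.13 on chip 2 and −0.24 on chip 3, and with brightness as a covariate it was 0.22 (SE 0.10, limma adjusted p = 0.338).

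Of the LEPROT probes, the one with the highest mean, A_72_P539363, read higher in DD pigs while the rest read lower. It read 9.79 to 10.38 in DD pigs and 9.63 to 10.11 in LW pigs, with 4 DD pigs above every LW pig, and its difference was 0.21 (SE 0.09, limma adjusted p = 0.0913). The identical probes A_72_P176516 and O5306 gave −0.07 (SE 0.13) and −0.06 (SE 0.14), and A_72_P098901, which overlaps all 3 of these, gave −0.11 (SE 0.15). The fifth, A_72_P236897, was well above background on 3 DD and 7 LW arrays and gave −0.20 (SE 0.19). No LEPROT probe was called.

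LEPR itself (chr6:146802297-146896152), the leptin receptor, was not measured above background. Its probe was well above background on 0 of 10 DD and 0 of 11 LW arrays, with levels of 1.5 to 3.59 in DD pigs and 1.62 to 4.10 in LW pigs, and the copy of that probe was likewise above background on no array. With no filter on dim probes it would be tested, at −0.04 (limma adjusted p = 0.946).

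INSR (chr2:71797209-71939923), the insulin receptor, was in the same position. Its probe, printed above and filed under a human transcript record, was well above background on no array. Its levels were 2.89 to 4.37 in DD pigs and 1.90 to 4.30 in LW pigs. Without the filter its difference was 0.06 (limma adjusted p = 0.909). For neither receptor does this say that the blood holds no transcript, since 1 probe below background gives only a limit.

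IGF1R (chr1:137383623-137691038), the IGF1 receptor, had 2 of its 3 probes kept. The gene level ran from 4.39 through a median of 4.95 to 5.57 in DD pigs and from 4.72 through 5.01 to 5.57 in LW pigs. The SD of this mean of 2 probes was 0.40 in DD and 0.23 in LW pigs. The fitted difference was −0.001 (SE 0.14, 95% interval −0.28 to 0.28, limma adjusted p = 0.997). Of its probes, O13126 was well above background on 8 DD and 11 LW arrays and gave −0.08 (SE 0.19, limma adjusted p = 0.791). At O13126 the spread was alike, with an SD of 0.50 in DD and 0.49 in LW pigs. The other kept probe, A_72_P440946, was above background on no array, nor was the removed one. The SDs at A_72_P440946, 0.38 in DD and 0.21 in LW pigs, are those of readings at background.

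IGF2R (chr1:7369485-7472480), the receptor for IGF2 and mannose 6-phosphate, had 7 probes, all kept. Its level ran from 6.27 through a median of 6.79 to 7.21 in DD pigs and from 6.41 through 6.88 to 7.08 in LW pigs. The fitted difference was −0.07 (SE 0.09, 95% interval −0.26 to 0.11, limma adjusted p = 0.577), with 0.05 on chip 1, −0.09 on chip 2 and −0.20 on chip 3. Of the probes above background on all arrays, the identical A_72_P513762 and O10348 gave −0.14 and −0.16 (SE 0.17 for both), and A_72_P704524 gave 0.30 (SE 0.16, limma adjusted p = 0.180).

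The other 4 IGF2R probes were above background on 2 to 4 of the 10 DD arrays and 3 to 8 of the 11 LW arrays. The pair that shares 57 bases gave −0.03 (SE 0.13) at A_72_P245722 and 0.12 (SE 0.14) at A_72_P490952, with an SD of 0.44 in their difference over the arrays. A_72_P445023 gave −0.23 (SE 0.11, limma adjusted p = 0.124) and A_72_P444408 gave −0.37 (SE 0.19, limma adjusted p = 0.155). None of the 7 was called.

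**Figure D4:**
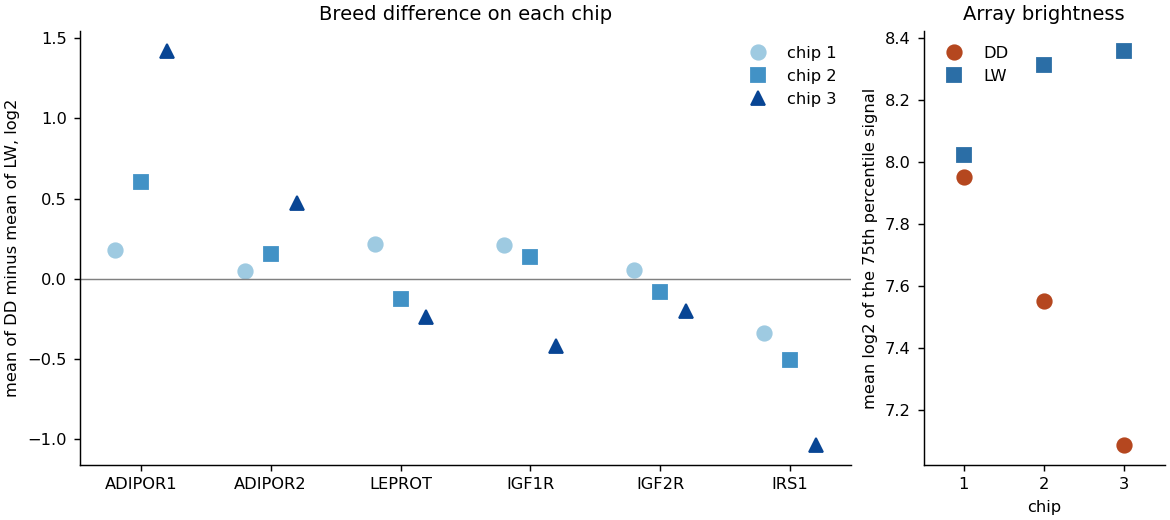
Left, difference of the DD and LW means on each chip (y axis, log2) for the 6 tested genes; right, mean array brightness before normalisation (y axis, log2 of the 75th percentile signal) of each breed on each chip. ADIPOR1, ADIPOR2 and IRS1 keep one sign on all 3 chips and grow from chip 1 to chip 3 (ADIPOR1 from 0.18 to 1.42), as does the brightness gap, while LEPROT, IGF1R and IGF2R change sign between chips.

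IRS1 (chr15:128245846-128307321), the docking protein that links INSR and IGF1R to PI3-kinase, was called lower in DD pigs from 1 of its 4 probes. That probe, A_72_P371473, read from 4.25 through a median of 4.62 to 5.63 in DD pigs and from 4.61 through 5.29 to 6.01 in LW pigs. Of the 10 DD pigs, 5 lay below every LW pig. The means were 4.76 ± 0.48 (SD, n = 10) and 5.34 ± 0.42 (SD, n = 11), and the fitted difference was −0.61 (SE 0.16, 95% interval −0.94 to −0.27, limma adjusted p = 0.0184). The call held when any single pig was left out (−0.71 to −0.54, adjusted p from 0.0069 to 0.0415).

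Signal was weak at this probe: it was well above background on 2 of 10 DD and 10 of 11 LW arrays, so most DD values are readings at background and the size of the difference is uncertain beyond its interval. By chip, DD pigs differed from LW pigs by −0.34, −0.51 and −1.04, from chip 1 to chip 3. With brightness as a covariate it was −0.44 (SE 0.22, limma adjusted p = 0.455), without chip 2 −0.67 (limma adjusted p = 0.112) and without chip 3 −0.44 (limma adjusted p = 0.317). On litter means it was −0.55 (limma adjusted p = 0.0878), and with no chip term −0.58 (limma adjusted p = 0.0652). The other 3 IRS1 probes, which include both filed under the pig RefSeq transcript, were removed as dim. Of these, A_72_P537138 and O11228 were above background on no array, with DD levels from 2.59 to 4.67 and LW levels from 2.90 to 4.50, and A_72_P443378 was above background on 1 DD array only. When dim probes were kept, IRS1 as the mean of 4 probes differed by −0.05 (SE 0.12) and was not called. It was also not called with a background offset of 50 (0.01) or with the processed signal scaled to the 75th percentile (0.07), where A_72_P443378 passed the filter as well. At A_72_P443378 a single reading stood apart, 8.25 in DD pig 21, which had the dimmest array (6.56), where the next highest DD pig read 4.19. A_72_P371473 taken alone gave −0.23 (limma adjusted p = 0.0284) and −1.10 (limma adjusted p = 0.0140) on those scales.

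IRS2 (chr11:76626158-76654639), the second main substrate, had no probe under its name. A probe filed under a sequence cluster, A_72_P382643, is described in the array's files as part of mouse IRS2 and is given here by that description, not as a member. It was well above background on all 21 arrays. It read from 6.24 through a median of 6.69 to 7.90 in DD pigs and from 5.91 through 6.40 to 6.80 in LW pigs, with 4 DD pigs above every LW pig. Its difference was 0.45 (SE 0.14, limma adjusted p = 0.0283), opposite in sign to that of IRS1.

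**Figure D5:**
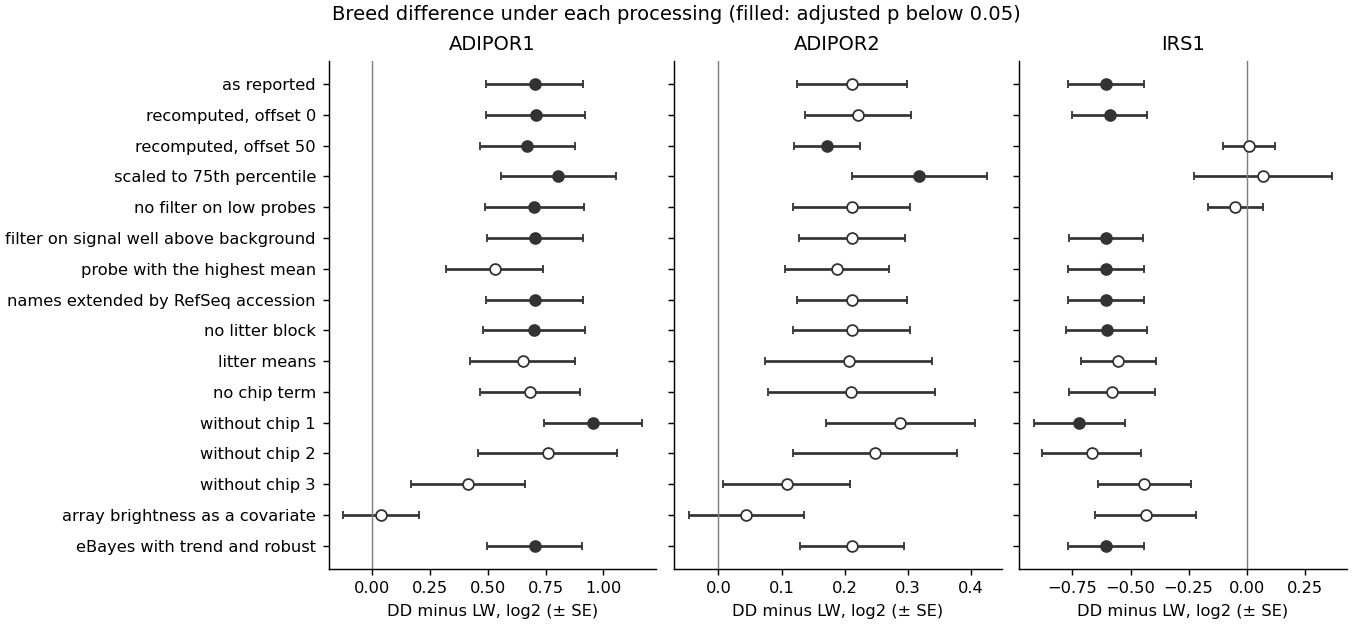
DD minus LW (x axis, log2, with SE) of ADIPOR1, ADIPOR2 and IRS1 as reported and under each other way of processing (y axis); filled points had an adjusted p below 0.05. ADIPOR1 stays positive everywhere but falls to 0.04 with brightness as a covariate, and IRS1 moves from −0.61 to near 0 wherever its dimmer probes enter the mean.

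The genes around these receptors were read from lists by role. Of the hormones, 2 of 3 insulin and IGF genes were tested and 0 were called, with INS above background on no array. Likewise 0 of 8 IGF binding proteins were called, with a median difference of 0.18, and 0 of 5 adipokines, with a median of 0.00, where the median over all gene names was −0.04. Among other receptors of these families, 6 were tested, and 2 were higher and 2 lower in DD pigs, where 11.4% and 9.41% of all gene names were. PAQR9 rose by 0.61 (SE 0.18, limma adjusted p = 0.0252) and PAQR6 by 0.49 (SE 0.15, limma adjusted p = 0.0302), both of the progestin and adipoQ receptor family to which ADIPOR1 and ADIPOR2 belong. With brightness as a covariate these were 0.03 and 0.04 and not called. LEPROTL1, the paralogue of LEPROT, fell by 0.37 (SE 0.12, limma adjusted p = 0.0309), with 4 DD pigs below every LW pig. PAQR8, named after its values were seen, fell by 0.28 (SE 0.09).

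Downstream of the receptors, 1 of 11 adaptors was called, CRKL, which couples docking proteins to RAS-family switches and fell by 0.32 (SE 0.10, limma adjusted p = 0.0354). Of 12 receptor inhibitors 1 was called, CISH, a feedback inhibitor of cytokine receptors, which rose by 0.81 (SE 0.24, limma adjusted p = 0.0250). With brightness as a covariate CRKL read −0.04 and CISH 0.01, and neither was called. None of 9 genes of leptin receptor signalling was called (0 of 9, median 0.05), nor was any of 10 genes of mannose 6-phosphate sorting (0 of 10, median −0.13). Across all gene names 20.9% were called, and these small counts are no result about the lists.

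In the PI3-kinase and AKT branch, 22 genes were tested, 1 was higher and 4 were lower in DD pigs, with a median of −0.04. These 5 of 22 genes are near the 20.9% called among all gene names, so the count is no result about the branch. Of the regulatory subunits of PI3-kinase, PIK3R1 fell by 0.76 (SE 0.25, limma adjusted p = 0.0367) and read −0.05 with brightness as a covariate (limma adjusted p = 0.995). PIK3R2 fell by 0.55 (SE 0.10, limma adjusted p = 0.00107). PIK3R2 read 6.28 to 6.99 in DD pigs and 6.92 to 7.50 in LW pigs, with 7 of 10 DD pigs below every LW pig. Of its 2 probes, 1 was above background on all 10 DD arrays and the other on 3. PIK3R2 was the 1 gene of these pathway lists called with brightness as a covariate (−0.50, limma adjusted p = 0.0396). FOXO3, a transcription factor that AKT keeps out of the nucleus, rose by 0.62 (SE 0.21, limma adjusted p = 0.0405), while FOXO1 (−0.37, SE 0.11) and TBC1D4 (−0.40, SE 0.14), both named after their values were seen, were the other 2 lower genes. TBC1D4 was above background on 5 DD and 10 LW arrays.

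Of the genes that act after the adiponectin receptors, 13 were tested, 0 were higher and 2 were lower, with a median of −0.18. Across all gene names 9.41% were called lower, so the count of 2 is no result about this list. CAMKK2, a kinase that activates AMP-activated kinase, fell by 0.43 (SE 0.12, limma adjusted p = 0.0207). PRKAA2, a catalytic subunit of that kinase, was above background on 0 DD and 5 LW arrays and was called lower (limma adjusted p = 0.0247), but with most arrays of both breeds at background its means as read, 3.95 in DD and 4.51 in LW pigs, give no fold. With brightness as a covariate 0 genes were called in 9 of the 10 lists. That model called 2.15% of all gene names, so these counts are no result about the lists.

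Markers of blood cells moved with the breeds too, and their part in the differences above was not tested. Of 20 erythroid markers, 15 read higher and 5 lower in DD pigs, and 7 of the former and 0 of the latter were called, where 11.4% of all gene names were called higher. Their median difference was 0.29, and −0.03 with brightness as a covariate. The mean level of these 20 genes ran from 9.26 to 10.35 in DD pigs and from 9.15 to 10.22 in LW pigs. ANK1, of the red cell membrane skeleton (1.18, limma adjusted p = 0.00348), was among the 7. Of 13 T cell markers 4 were called lower and 0 higher, where 9.41% of all gene names were called lower, the share that applies to the monocyte list below as well. The T cell median was −0.38 (−0.11 with brightness), and the mean level of these markers ran from 7.97 to 9.32 in DD pigs and from 8.45 to 9.39 in LW pigs. Of 12 monocyte markers 3 were called lower, although 7 read higher (median 0.08). CLEC7A was still called with brightness as a covariate (−1.01, limma adjusted p = 0.0178). With either of its 2 probes it was above background on 6 DD and 11 LW arrays, so part of its DD values are readings at background. Of 8 markers of natural killer and cytotoxic cells 1 was lower. Of 9 platelet markers 1 was lower, PPBP, with −0.94 as fitted and −1.94 with brightness (limma adjusted p = 0.000369), and the platelet median went from −0.05 to −0.52. Of 11 granulocyte markers 1 was higher, and of 11 B cell markers 0 were called, with a median of 0.10 that was 0.49 with brightness. For other tissues, 0 of 5 hepatocyte, 1 of 6 adipocyte (LIPE) and 0 of 7 skeletal muscle markers were called. Of the 8 hepatocyte genes on the array, 2 were above background on all arrays and 2, FGA and FGB, on no array. Across all gene names 11.4% were called higher and 9.41% lower, so a list with 1 call gives no result about its cell type.

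As a description of which genes varied most like the receptors among the 21 pigs, values were compared after the breed and chip means were taken out, and nothing about function follows from it, since all genes share the arrays and their brightness. The entry most like ADIPOR1 was the copy of its own probe (r = 0.98), followed by SNRNP27 (r = 0.97) and by a sequence cluster described by a bovine protein (r = 0.95). For ADIPOR2 it was TSPAN7 (r = 0.95), for LEPROT CCDC6 (r = 0.93) and ARHGAP17 (r = 0.92), and for IGF2R SNRK (r = 0.87). The closest named gene was NACA (r = 0.82) for IRS1, and IGF1R had 2 entries known by sequence record only (r = 0.86 and r = 0.84).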

How the data were processed

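Blood RNA from 21 pigs (10 DD, 11 LW) was hybridised to a custom pig array from Agilent, with 1 dye and 1 array per pig. The deposited scanner output gives the intensity of each spot and its local background, read with Agilent Feature Extraction 10.7.3.1 per the labels, with no normalisation between arrays. The main values are the log2 matrix deposited by the authors, who had removed 3 arrays, corrected the background (normexp) and quantile normalised. Of the 60305 probes that are not controls, the 25% with the lowest means were left out (45228 kept), and kept probes with the same gene name, ignoring case, were averaged. In limma, breed and chip entered as fixed terms and litter as a random block (duplicateCorrelation, consensus correlation −0.11), followed by eBayes and Benjamini-Hochberg adjustment, called below 0.05. The litter correlation was negative, and without the block the SE rose from 0.21 to 0.22 for ADIPOR1 and from 0.16 to 0.18 for IRS1. Both stayed called (limma adjusted p = 0.0428 and 0.0329), while 4894 gene names were called in place of 7171. Detection came from the scanner flag for spots well above background, and 0 spots were saturated on every array. Litters and chips came from the study's animal list.

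Members, gene lists and tests were chosen with earlier results of these data known. The genes named are all 9 members with their probes, at most 3 called genes per pathway list by size of difference, and for each member the 3 entries with the highest Pearson r after removal of breed and chip means. Named outside this rule, after their values were seen, are PAQR8, FOXO1 and TBC1D4 (the other called genes of their lists), the markers ANK1, CLEC7A, PPBP and LIPE, and INS, FGA and FGB for their lack of signal. The lists were ligands, IGF binding proteins, adipokines, related receptors, adaptors, inhibitors, leptin, PI3-kinase, adiponectin and mannose 6-phosphate genes, and markers of 10 cell types. The alternatives were values recomputed from the scanner intensities (offset 0 or 50), the processed signal scaled to the 75th percentile, other filters, probe summaries and names, a model without litter, one on litter means, one without chip, leaving out each chip or pig, brightness as a covariate, and trended robust eBayes. Single-probe fits on other scalings and list medians with brightness were added after seeing the data. On simulated data for this comparison, with 34393 genes, the fit recovered 94 of 100 genes changed by 1.5 log2 and 55 of 100 changed by 0.8, with 2 false calls. The simulated noise was separate for each gene, with a positive litter spread and no brightness shared over an array. It therefore does not measure how many calls in the real data are false. Gene positions are RefSeq's, on Sscrofa11.1. Software was R 4.3.3 (limma 3.58.1, statmod 1.5.0), and Python with pandas and matplotlib.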

Additional observations from a re-analysis of the deposited data

Results flagged for a closer look

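At the IRS1 probe A_72_P443378, removed as dim, DD pig 21 read 8.25 where the next highest DD pig read 4.19. The gap was 0.745 of the range of the 10 DD pigs, far enough to stand apart from the group. It was the sole array on which this probe was well above background. The 6 genes and the 29 probes were checked in this way in the DD group, and chance alone would set apart about 1 group in 20.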

How the results depend on the processing

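Of the members, 2 were called as reported, 1 higher and 1 lower in DD pigs. The count was also 2 on recomputed values, with a filter on detection, with extended names, without the litter block, without chip 1 and with trended robust eBayes. Of all gene names, these settings called from 14.2% (without the litter block) to 30.9% (filter on detection), against 20.9% as reported. The filter on detection kept the IRS1 probe only through the LW arrays, as it was flagged on 2 DD and 10 LW arrays. Extended names left ADIPOR1 (0.70) and IRS1 (−0.61) as they were. Neither setting is therefore separate support for the count. With a background offset of 50 and with scaling to the 75th percentile, 2 were higher (ADIPOR1, ADIPOR2) and 0 lower, as the dim IRS1 probe A_72_P443378 then entered its mean (IRS1 0.00861 and 0.0688). With no filter 1 was called (0 lower, IRS1 −0.05), and with the probe of highest mean 1 (0 higher, ADIPOR1 0.53). Of all gene names, the offset of 50 called 22.3%, the scaling 20.7%, no filter 9.34% and the probe of highest mean 22.6%. On litter means, with no chip term, without chip 2, without chip 3 and with brightness as a covariate, 0 were called in either direction. Of all gene names, these settings called 2.71%, 5.43%, 1.96%, 2.29% and 2.15%, in that order. Counts of 0 are therefore no result about the members. The cause of the lost calls was not tested. Leaving out single pigs gave 1 to 3 called members, 0 to 2 higher and 1 lower in every case, and 3 only without DD pig 6. Without that pig 28.2% of all gene names were called.

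Genes that were not called changed sign: IGF1R at 0.00249 on recomputed values, 0.18 with scaling to the 75th percentile, 7.153e-05 without the litter block, 0.16 without chip 3, 0.0334 with brightness, and −0.0515 to 0.0713 with single pigs left out; IGF2R at 0.0504 with scaling and 0.0764 with brightness; LEPROT at 0.21 with the probe of highest mean, 0.00327 without chip 2, 0.0273 without chip 3 and 0.22 with brightness. ADIPOR1 stayed above 0 and ADIPOR2 likewise in every fit.

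Over all gene names, 7171 were called as reported, against 4894 without the litter block, 4397 with no filter, 1866 with no chip term, 933 on litter means, 788 without chip 3, 673 without chip 2, 739 with brightness and 3606 to 9688 with single pigs left out. Scaling to the 75th percentile moved the median of all gene names from −0.04 to 0.07. No paired analysis was possible because DD and LW pigs share no animal numbers.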
